A study of Mus musculus with 6 samples.

Results

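The cytosolic ribosome of mouse taste cells was followed through the 85 ribosomal protein genes that could be read from a table of 23361 gene rows. A row was taken when its symbol began with Rpl or Rps and a number, or was Rpsa, Rplp0, Rplp1 or Rplp2. The Rps6k kinase genes and names of numbered pseudogenes were left out. Of the 85 genes, 76 encode core proteins of the ribosome, 31 of the small subunit and 45 of the large. The other 9 are 8 paralogs, which are related copies of a core gene, and Rps19bp1, which encodes a protein that binds Rps19 and is not a part of the ribosome. The cells came from C57BL/6 mice of 2 and 6 months of age, for which the labels give no transgene, deletion or drug. The design text of the series names 3 and 6 months in place of these ages, and the ages of the sample labels were used. Taste cells were harvested after enzyme treatment of the lingual epithelium from 2 kinds of papillae, the circumvallate (CV) papilla at the back of the tongue and the foliate (Fol) papillae at its sides. Each age had 3 libraries of poly A selected RNA, and each library was a pool of cells from 4 mice at 2 months and from 3 mice at 6 months. Levels are in FPKM, a count of sequenced fragments scaled to the length of the transcript and to the mapped total of the library, and the table gives 1 FPKM value per gene and age over the pooled libraries. With 1 value per age there was no replicate check, so no SD and no test are given for any difference below, and the depth of the libraries is unknown.

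Cytosolic ribosomes translate the mRNAs of the nucleus. Most of their proteins are present once in each ribosome, while the stalk proteins Rplp1 and Rplp2 are present in more than a single copy, and their mRNAs are among the most abundant of any cell that grows or renews. The mRNAs of ribosomal proteins typically begin with a C and a short stretch of pyrimidines, the 5′ terminal oligopyrimidine tract, through which the mTOR pathway and the RNA-binding protein Larp1 set how well they are translated. Taste bud cells are replaced throughout life from keratin-expressing progenitors of the surrounding epithelium.

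The pyrimidine tract was looked for around the annotated start of each gene, because it is a feature that ribosomal protein genes share and that the choice of genes did not use. Start sequences of the RefSeq annotation (build GRCm38.p6) were matched for 64 of the 85 genes. The lines below show 15 bases on each side of the annotated start, on the strand of the gene, with the longest run of C and T that reaches within 5 bases of the start in capitals. Rpl7a is shown for the longest run among the genes. Rps26, Rplp2 and Rps24 are shown as the core genes with the lowest ratio of 6 to 2 months. Rpl39 and Rps27 were higher at 6 months. Rplp0 stood next to them in order of change. Rpl22l1 and Rpl3l are paralogs.
Rpl7a: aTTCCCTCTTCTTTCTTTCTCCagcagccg
Rps26: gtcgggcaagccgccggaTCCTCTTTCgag
Rplp2: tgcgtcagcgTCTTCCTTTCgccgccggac
Rps24: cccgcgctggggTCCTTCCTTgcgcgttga
Rps27: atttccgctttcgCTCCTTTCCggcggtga
Rpl22l1: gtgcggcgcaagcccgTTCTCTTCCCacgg
Rpl39: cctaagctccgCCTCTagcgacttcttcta
Rplp0: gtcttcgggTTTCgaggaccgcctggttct
Rpl3l: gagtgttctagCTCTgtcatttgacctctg

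The window of Rps26 lies at chr10:128626492-128626521 on the minus strand, that of Rplp2 at chr7:141447636-141447665 on the plus strand, and that of Rps24 at chr14:24490663-24490692 on the plus strand. A run of at least 8 pyrimidines was found in 23 of the 64 matched genes, or 35.9%, against 10.96% of the 27025 genes in the RefSeq table. The run was 21 bases in Rpl7a, 10 in Rplp2 and Rpl22l1, 9 in Rps26, Rps24 and Rps27, 5 in Rpl39, and 4 in Rplp0 and Rpl3l. Where a gene had several annotated starts, the start with the longest run was used, and an annotated start can lie some bases from the start used in these cells. Sequence words were also searched on either strand of the stretch from 250 bases before to 50 bases after the start. CCGGAAG, the core that ETS factors bind, was found in 39.1% of the matched ribosomal protein genes and in 9.93% of all genes. AAGATGGC, a YY1 core whose first bases can overlap the end of CCGGAAG, was found in 9.38% against 3.19%. GGGCGG, the GC box, was found in 62.5% against 38.2%. TATAAA was found in 10.9% against 15.7%. A match only says that the letters are present.

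Ribosomal protein mRNAs held a large share of the mRNA signal of the taste cells at either age. Of the 76 core genes, 62 had a mean of 1000 FPKM or more over the ages, and the median mean was 1792 FPKM. For comparison, the median of the 12652 rows with a mean of 1 FPKM or more was 11.8 FPKM at 2 months against 11.7 FPKM at 6 months. No ribosomal protein gene was listed at 0 FPKM. The most abundant were Rplp1, a protein of the stalk that recruits elongation factors, and Rps12, Rpl41, Rps28 and Rps29, small proteins of either subunit. Rplp1 was at 5727 FPKM at 2 months against 5657 FPKM at 6 months. Rps12 was at 4601 and 4198 FPKM. Rpl41, which has the shortest coding sequence of the core genes with 75 bases, was at 4274 and 3903 FPKM. Rps28 was at 3747 and 3449 FPKM, and Rps29 was at 3511 and 3315 FPKM. Rplp1 differed least between the ages among these 5 genes.

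**Figure D1:**
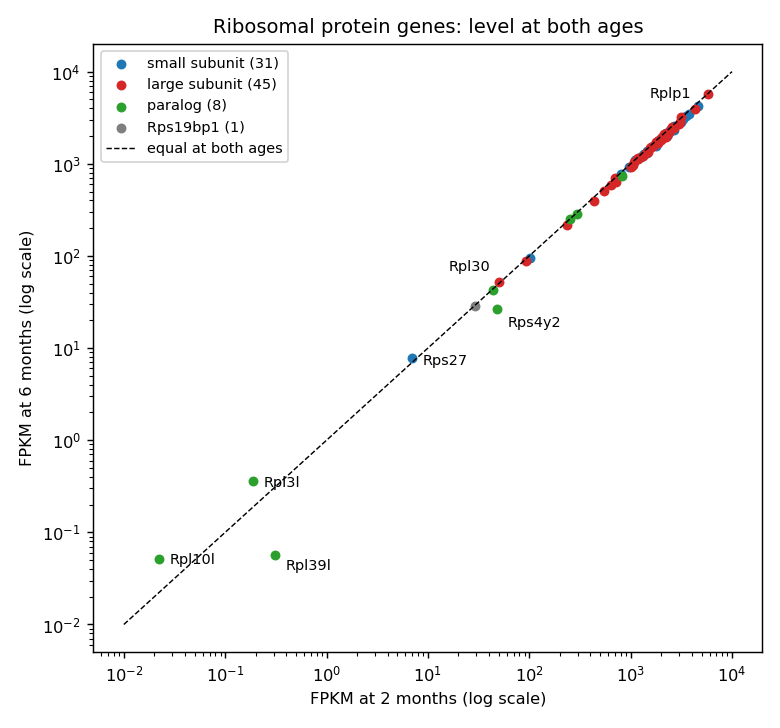
FPKM at 2 months (x axis) against FPKM at 6 months (y axis), both on log scales, for the 85 ribosomal protein genes, 1 point a gene, coloured by subunit or as a paralog, with a dashed line of equal values. Most core genes lie together above 1000 FPKM and close to the line, with Rps4y2, Rpl39l, Rpl3l and Rpl10l farthest from it.

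A low value of a core gene in the table was not always a low level of the mRNA. Only 6 core genes had a mean under 500 FPKM, and they were Rps27, Rpl30, Rpl26, Rps15a, Rpl22 and Rpl37. The row named Rps27 had 7.004 FPKM at 2 months against 7.86 FPKM at 6 months. A further row of the table, named Gm9846,Rps27, gives Rps27 together with the gene model Gm9846 and held 4729 and 4314 FPKM. Most of the FPKM under the name Rps27 therefore stood outside the row that the rule reaches. Rpl34 had no row of its own. A row named for the pseudogene Rpl34-ps1 was at 2416 FPKM at 2 months against 2263 FPKM at 6 months. A merged row of Rpl34 and Rpl34-ps1 was at 25.2 and 20.9 FPKM. Whether the Rpl34-ps1 row holds the signal of Rpl34 was not tested. Rpl30 was at 50.2 and 51.8 FPKM, Rpl26 at 93.2 and 89.1 FPKM, and Rps15a at 102 and 96.0 FPKM. Some other ribosomal proteins carry names that the rule does not reach. Fau, whose product is cut to give Rps30, was at 1434 and 1346.5 FPKM. Gnb2l1 (Rack1), a scaffold protein of the small subunit, was at 1338 and 1319 FPKM. The merged rows and the rows of Rpl34-ps1, Fau and Gnb2l1 are not counted below.

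From 2 to 6 months the ribosomal protein genes differed by a small and similar amount, and in the deposited values they were lower. Of the 82 genes with a mean of 1 FPKM or more, 79 were lower at 6 months and 3 were higher. The share lower was 96.3%, against 53.7% of all 12652 rows at that level. The median change in log2(FPKM + 1), 6 minus 2 months, was -0.10 for the ribosomal protein genes and -0.01 for all rows. Quartiles were -0.13 and -0.06 for the ribosomal protein genes and -0.10 and 0.08 for all rows. Abundant rows as a class were also lower. Of the 791 other rows with a mean of 100 FPKM or more, 72.6% were lower, with a median of -0.09. At a mean of 1000 FPKM or more, the 59 other rows had a median of -0.12. Beside other abundant rows, the medians of the ribosomal protein genes were alike and their spread was narrower, a comparison that was not tested. Their interquartile range was 0.0743 on the log2 scale, against 0.182 for the other rows over 100 FPKM. Those rows had lower levels, with a median of 183 FPKM at 2 months against 1792 FPKM, and they mix coding lengths. Over 100 FPKM and up to 600 coding bases, the range was 0.049 for ribosomal protein genes and 0.128 for others. Above 600 bases it was 0.049 and 0.155. The list of 82 genes rests on the filter at 1 FPKM, which left out Rpl3l, Rpl10l and Rpl39l.

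A larger size of difference, at least 25% higher or at least 20% lower at 6 months on the FPKM + 1 scale, was reached by 1 of the 82 genes, the paralog Rps4y2, and by no core gene, against 7.18% of all rows. Rps4y2 was lower, as were 4.23% of all rows past this size, and no ribosomal protein gene was higher, against 2.95% of all rows. Of the 791 other rows over 100 FPKM, 15.3% passed this size, 9.1% lower and 6.19% higher. These rows include some without a known coding length, and those with a length passed it less often. Of 260 with up to 600 coding bases, 20 were lower and 5 higher by this size. Of 413 with more than 600, 29 were lower and 6 higher. Lower by at least 1.1-fold were 12 of the 82 genes, or 14.6%, against 18.7% of all rows and 33.1% of the other rows over 100 FPKM.

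**Figure D2:**
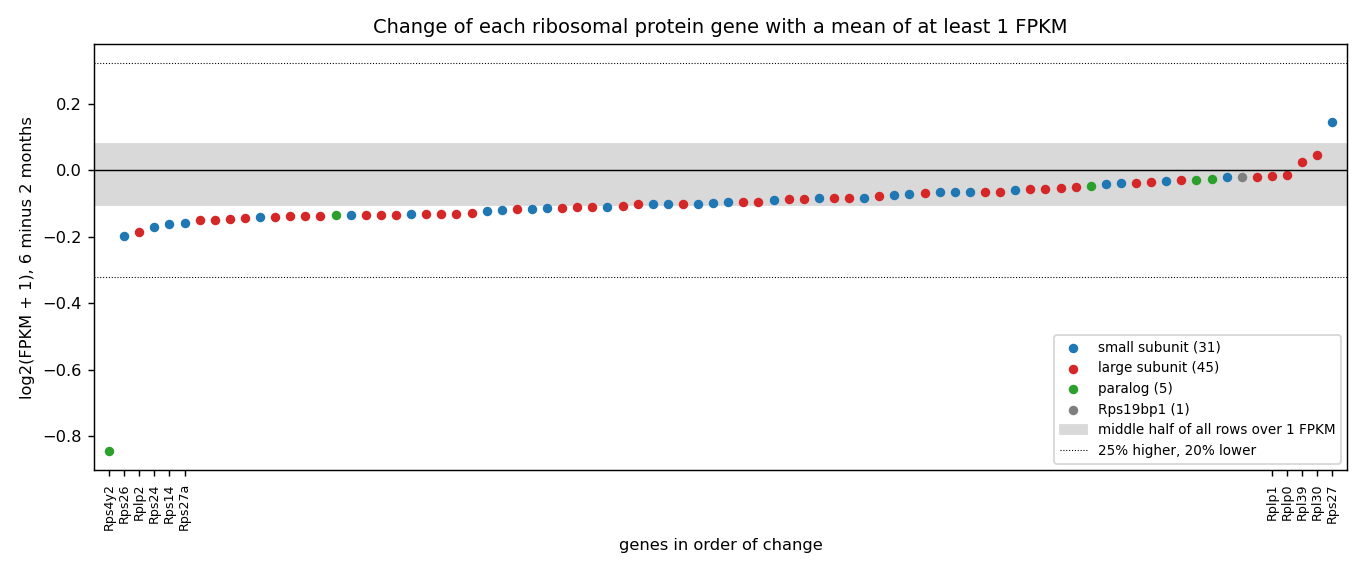
Change in log2(FPKM + 1), 6 minus 2 months (y axis), of the 82 ribosomal protein genes with a mean of 1 FPKM or more, ordered from lowest to highest (x axis, names given for the genes at either end), with the range between the quartiles of all rows in grey and 25% higher and 20% lower as dotted lines. Deposited values are below 0 for 79 genes, a count that was 41, against 29.3% of all rows, when the 6 month values were scaled to the same sum without small RNA rows, and Rps4y2 alone lies beyond a dotted line.

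In the small subunit, 30 of 31 core genes were lower at 6 months in the deposited values, with a median change of -0.10, and 16 of 31 were lower after scaling without the small RNA rows described below, against 29.3% of all rows under that scaling. The largest difference was in Rps26, a protein at the mRNA exit channel, with 2697 FPKM at 2 months against 2352 FPKM at 6 months, a change of -0.20. Rps24, a gene mutated in some cases of Diamond-Blackfan anaemia, had 2259 and 2008 FPKM, a change of -0.17. Rps14, a protein of the platform of the subunit, had 1758 and 1572 FPKM, a change of -0.16. Rps27a, which is made as a fusion with ubiquitin, had 1455 and 1305 FPKM, a change of -0.16. These 4 genes were lower by 1.1-fold or more, and all lay among the largest differences of the core genes. Rps6, the substrate of the S6 kinases, had 1365 and 1278 FPKM, a change of -0.10 that was close to the median. Rps2 and Rpsa, proteins of the mRNA entry and exit sides, had changes of -0.07 and -0.02. The exception was the row of Rps27, a zinc finger protein, with a change of 0.15. As given above, that row held a small part of the signal, and the merged row Gm9846,Rps27 had a change of -0.13.

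In the large subunit, 43 of 45 core genes were lower in the deposited values, again with a median change of -0.10, and 23 of 45 were lower after scaling without the small RNA rows, where 29.3% of all rows were lower. The stalk is the part of the large subunit that binds the elongation factors and is made of Rplp0, Rplp1 and Rplp2. Rplp2 had 2241 FPKM at 2 months against 1971 FPKM at 6 months, a change of -0.18 that was the largest of the subunit. Rplp0, the anchor of the stalk, had 2557 and 2534 FPKM, a change of -0.01. Rplp1, the partner of Rplp2, had a change of -0.02. The value at 6 months was 0.991 times that at 2 months for Rplp0, 0.988 times for Rplp1 and 0.880 times for Rplp2.
Rpl5 and Rpl11 form the particle with 5S rRNA that also binds Mdm2 when ribosomes are not assembled. Rpl5 had 706 FPKM at 2 months against 697 FPKM at 6 months, a change of -0.02. Rpl11 had 2362 and 2214 FPKM, a change of -0.09. The 2 large subunit genes that were higher at 6 months were Rpl39, a protein at the exit of the peptide tunnel, and Rpl30. Rpl39 had 3126 and 3178 FPKM, a change of 0.02, and Rpl30 had a change of 0.04.

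The size of these differences depended on how the ages were put on one scale. Of the FPKM summed over all rows, the ribosomal protein genes held 20.8% at 2 months and 20.3% at 6 months. The small subunit held 9.17% and 8.91% of it, and the large subunit 11.4% and 11.2%. The table also has 769 rows of microRNAs, snoRNAs and small Cajal body RNAs, whose part of that sum was 8.72% at 2 months and 10.9% at 6 months. Such RNAs are shorter than the fragments of a poly A library, and FPKM divides by their length. Without these rows, the ribosomal protein genes held 22.8% of the sum at either age. When the 6 month values were scaled to the same sum without the small RNA rows, the median change of the ribosomal protein genes was -0.00071 and 41 of 82 were lower, against a median of 0.07 and a share of 29.3% lower over all rows. When only the median of all rows was set to 0, the median change was -0.08 and 78 of 82 were lower. Each scaling multiplied all 6 month values by a common factor and so moved all lists by nearly the same amount. That the ribosomal protein genes lay below the median of all rows in each case is therefore no further result. Their distance from 0 could change, and it was not stable. The median of the other rows over 100 FPKM went from -0.09 to 0.01 under the scaling without small RNA rows. It moved with that of the ribosomal protein genes, as a common factor requires.

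**Figure D3:**
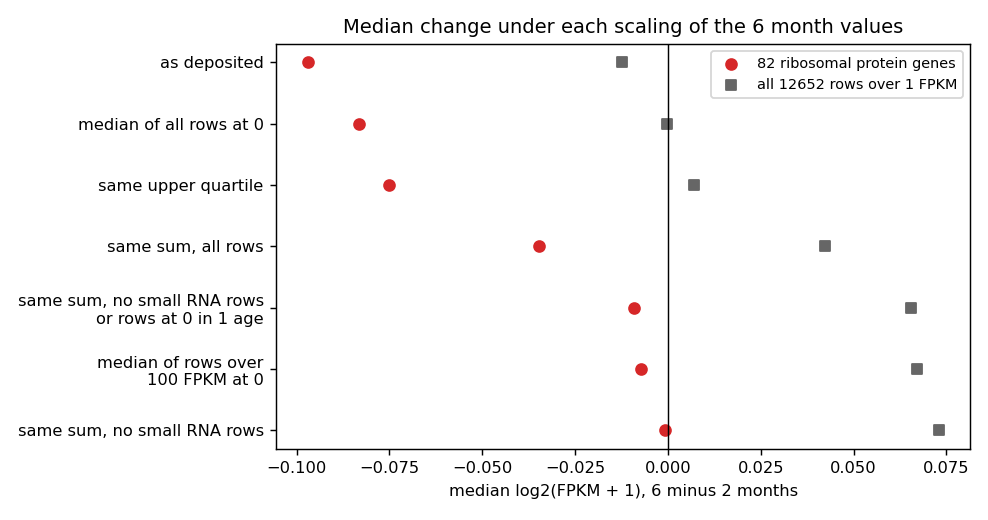
Median change in log2(FPKM + 1), 6 minus 2 months (x axis), of the 82 ribosomal protein genes (red circles) and of all 12652 rows with a mean of 1 FPKM or more (grey squares) for the deposited values and 6 ways of scaling the 6 month values (y axis). The ribosomal protein genes run from -0.10 to -0.00071. Each scaling moves both medians by nearly the same amount, so that their order is the same in each case by construction.

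Ribosomal proteins are short, and short genes as a whole were lower at 6 months in the deposited values. The median coding length was 453 bases for the ribosomal protein genes and 1365 bases for the other rows (GENCODE M21, with a length for 89.6% of the rows and 81 of the 82 genes). Genes of 301 to 600 bases made up the largest class, with 48 ribosomal protein genes and a median change of -0.11. The 1254 other genes of that class had a median of -0.09, and the 183 of them over 100 FPKM had -0.12. Up to 300 bases, the 10 ribosomal protein genes had a median of -0.10 with 80% lower, other genes had -0.12, and those over 100 FPKM had -0.16 with 85.7% lower. From 601 to 1000 bases, the 21 ribosomal protein genes had a median of -0.07, the other genes -0.05 and those over 100 FPKM -0.08. Other genes of more than 1500 bases had a median of 0.03. Among genes of up to 600 bases and at least 100 FPKM, the 53 ribosomal protein genes had a median of -0.12 and the 260 others had -0.13. Above 600 bases and at the same level, the 22 ribosomal protein genes and the 413 others both had -0.06. Across the 76 core genes, coding length and change had a Spearman rho of 0.33, and across the 11258 other rows rho was 0.35. All genes share the same libraries and the same length scaling in these correlations, and genes are not replicates. The part of length in the differences was not tested.

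**Figure D4:**
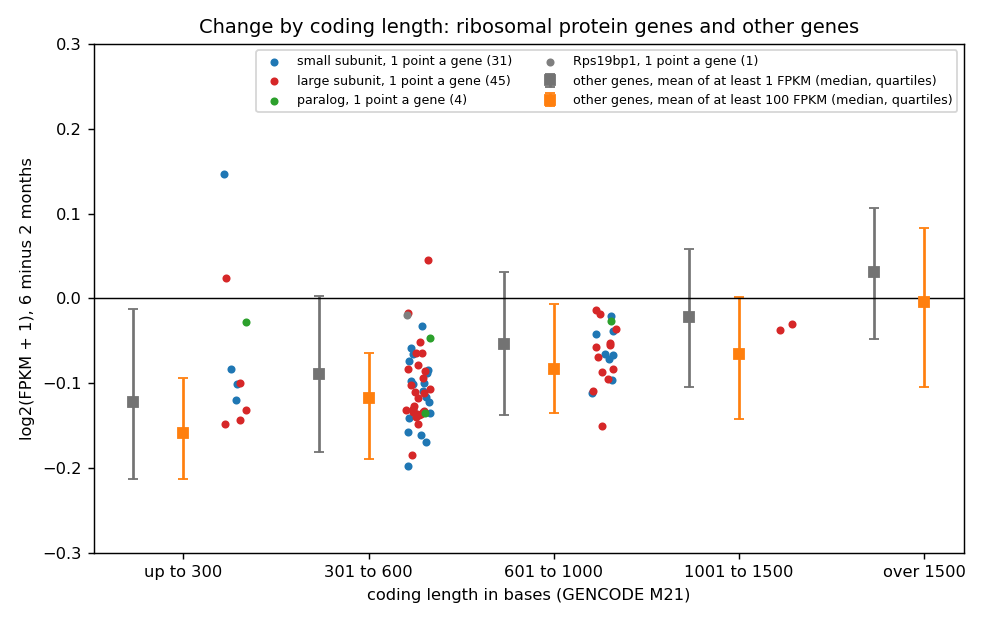
Change in log2(FPKM + 1), 6 minus 2 months (y axis), by class of coding length in bases (x axis), with 1 point for each ribosomal protein gene and the median with quartiles of the other genes over 1 FPKM (grey) and over 100 FPKM (orange). In the deposited values the ribosomal protein genes lie around the medians of other genes of the same length, near -0.11 from 301 to 600 bases and -0.07 from 601 to 1000 bases, and up to 300 bases their median of -0.10 lies above that of other genes over 100 FPKM, -0.16.

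Ribosomal protein genes have many near copies in the mouse genome, and reads that match several copies can be split between rows. For each core gene, the share of 50-base windows of its coding sequence that recur exactly in a transcript of another gene was counted. All windows recurred for 30 of the 76 core genes, at least 80% recurred for 58, and the median share was 93.1%. The values of these genes are uncertain as levels of one gene. Only 3 core genes had a share of up to 10%, and their values are the least open to such splitting. Among them, Rps3, with 8.09% of its windows recurring, had 797 FPKM at 2 months against 775 FPKM at 6 months, a change of -0.04. Rpl8, with 8.73%, had 1852 and 1786 FPKM, a change of -0.05. Rps3 and Rpl8 were lower in the deposited values, by less than the median of the list. The median change was -0.11 for the 30 genes with all windows shared, of which 29 were lower. It was also -0.11 for the 11 genes with up to 60% shared, all of which were lower. These counts are of deposited values, in which 53.7% of all rows were lower. Under the scaling without small RNA rows, 41 of the 82 ribosomal protein genes were lower, against 29.3% of all rows. Among the core genes with low values, the share went from low to complete. The row of Rps27, the lowest, had all windows shared. Rpl30, Rpl26 and Rps15a, with values far below those of most core genes, had shares of 83.1%, 87.3% and 84.2%, below the median of the core genes, and Rpl22 had 31.0%. Across the 76 core genes, which share the same libraries, the share and the mean FPKM had a Spearman rho of -0.08.

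The start sequences shown above went with similar median changes. The 21 core genes with a run of at least 8 pyrimidines had a median change of -0.11, and the 35 with a shorter run had -0.09. Rps26, Rplp2 and Rps24, with the largest differences, have runs of 9 or 10 bases. Rps27, the row with the highest change, has a run of 9, and Rpl39, also higher at 6 months, has 5. The 23 core genes with CCGGAAG and the 33 without had medians of -0.10 each.

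Most paralogs differed from their parent genes in level far more than in change. Rpl22l1, which can take the place of Rpl22, was above its parent. It had 293 FPKM at 2 months against 284 FPKM at 6 months, and Rpl22 had 236 and 218 FPKM. The ratio of Rpl22l1 to Rpl22 was 124% at 2 months and 130% at 6 months. Of the coding windows, 84.2% of Rpl22l1 and 31.0% of Rpl22 recur in other gene models. Rpl36al had 819 and 745 FPKM, which was 52.7% and 49.7% of the value of Rpl36a. Rps27l, a p53 target, had 255 and 250 FPKM and exceeded the row named Rps27, but not the merged row. Rpl7l1, related to a factor of large subunit assembly, had 43.3 and 42.5 FPKM, or 2.11% and 2.19% of Rpl7. The ratios of 6 to 2 months of these 4 paralogs ran from 0.910 in Rpl36al to 0.981 in Rpl7l1. Rps19bp1 had 29.1 and 28.7 FPKM, a change of -0.02.

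Rps4y2 had the largest difference of the list, with 48.2 FPKM at 2 months against 26.4 FPKM at 6 months, a change of -0.84. Its current RefSeq name is Rps4l, and it is annotated as a transcribed pseudogene at chr6:148354656-148355596, on an autosome despite the Y of its older name. Its parent Rps4x had 2438 and 2319 FPKM, a change of -0.07. Rps4y2 was thus at 1.98% of Rps4x at 2 months and at 1.14% at 6 months. Rps4y2 remained lower by more than 20% under each scaling of the 6 month values.

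Rpl3l, Rpl10l and Rpl39l, known from striated muscle and testis, were close to 0. Rpl3l had 0.189 FPKM at 2 months against 0.357 FPKM at 6 months. Rpl10l had 0.0220 and 0.0520 FPKM. Rpl39l had 0.308 and 0.0565 FPKM. Each was at most 0.0306% of its parent, so that ratios between the ages carry no weight. The 8 skeletal muscle markers examined were also low. In the deposited values, the 6 of them with a mean of 1 FPKM or more were higher at 6 months, as were 5854 of all 12652 rows at that level. After scaling without the small RNA rows, 29.3% of all rows were lower. Myh1 and Myh4 were below that level, and all 8 had a sum of 13.1 FPKM at 2 months against 26.2 FPKM at 6 months. Mylpf, the most abundant of them, had 3.76 and 5.25 FPKM. The part of muscle cells in the value of Rpl3l was not tested.

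**Figure D5:**
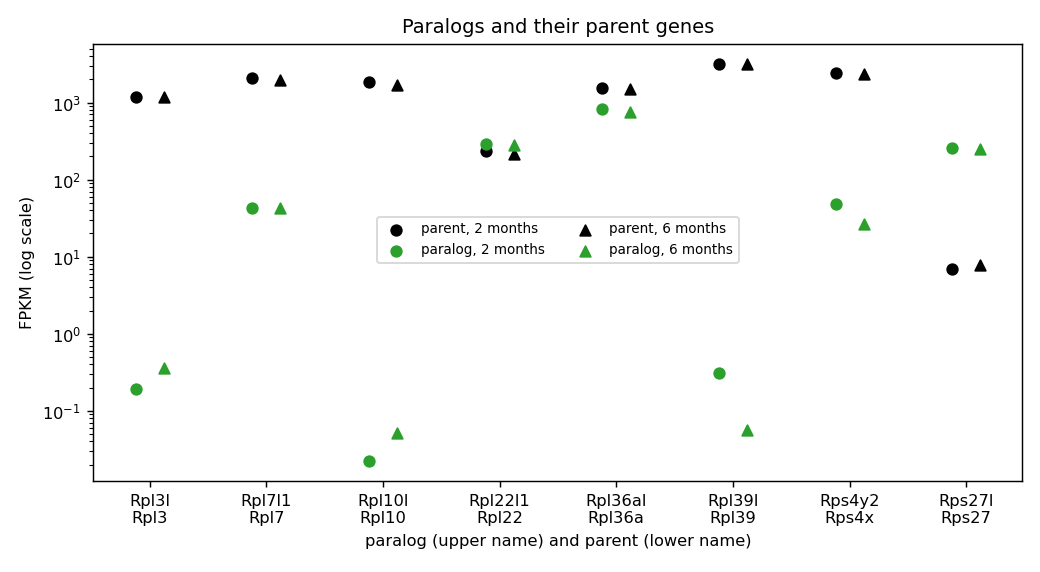
FPKM on a log scale (y axis) of the 8 paralogs (green) and their parent genes (black) at 2 months (circles) and 6 months (triangles), grouped by gene on the x axis. Rpl22l1 lies above Rpl22, Rps27l lies above the row named Rps27, and Rpl3l, Rpl10l and Rpl39l lie below 1 FPKM.

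Mitochondrial ribosomes, which translate the mRNAs of the mitochondrial genome, have proteins encoded by a separate set of nuclear genes. In the deposited values, 70 of their 76 genes were lower at 6 months, with a median change of -0.09, and 37 of 76 were lower after scaling without the small RNA rows, with a median of 0.0023, against 29.3% of all rows under that scaling. Their levels were far below those of the cytosolic set, with a median of 37.7 FPKM at 2 months against 34.8 FPKM at 6 months. Mrpl52, the most abundant, had 250 and 226 FPKM. Mrpl34 had 52.6 and 41.1 FPKM, and Mrps26 had 47.2 and 50.3 FPKM. Their coding length was also short, with a median of 582 bases.

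Factors that act with the ribosome, and other genes with pyrimidine tract mRNAs, had medians between -0.07 and -0.05 in the deposited values and between 0.02 and 0.04 after scaling without the small RNA rows. Over all rows, 53.7% were lower as deposited and 29.3% after that scaling, and the counts that follow are to be read against these shares. Of 7 genes listed as elongation factors, 6 were lower in the deposited values, with a median of -0.06, and 2 were lower after scaling without the small RNA rows. Eef1a1, which brings tRNAs to the ribosome, had 5610 FPKM at 2 months against 5376 FPKM at 6 months, a level like those of the most abundant ribosomal protein genes. Eef2, the translocase, had 1053 and 1119 FPKM, a change of 0.09. Eef1e1, which carries the family name but was not shown here to act in elongation, had 28.0 and 22.6 FPKM.
A list of 19 genes outside the ribosomal proteins with known pyrimidine tract mRNAs holds Eef1a1, Eef1b2, Eef1d, Eef1g and Eef2 again, and also genes with no part in translation such as Vim. Of the 19, 16 were lower, with a median of -0.07, and 8 were lower after that scaling. Hnrnpa1 had 34.2 and 28.7 FPKM, and Vim had 9.24 and 10.9 FPKM. Initiation factors were lower for 20 of 26, with a median of -0.05, and 9 were lower after scaling. Among them, Eif4a1, the helicase that unwinds mRNA leaders, had 545 and 510 FPKM, Eif5b had 30.9 and 26.2 FPKM, and Eif4g1, the scaffold of the cap complex, had 115 and 128 FPKM.

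Genes that build ribosomes had medians above those of the proteins they assemble in the deposited values. A common scaling moves these lists by nearly the same amount, so that the same order after scaling is no further result. Over all rows, 53.7% were lower as deposited and 29.3% after scaling without the small RNA rows, close to the shares of the biogenesis genes. Of 42 ribosome biogenesis genes, 26 were lower in the deposited values, with a median of -0.02, and 11 were lower after that scaling, with a median of 0.07. Npm1, an abundant protein of the nucleolus, had 492 FPKM at 2 months against 445 FPKM at 6 months. Nop10, of the box H/ACA complex, had 104 and 86.4 FPKM, and Utp20, of the small subunit processome, had 6.43 and 7.52 FPKM. RNA polymerase I, which transcribes rRNA, had 14 of 19 genes lower, with a median of -0.04, and 6 after scaling, with a median of 0.05. Its largest subunit Polr1a had 7.36 and 8.25 FPKM, Polr1d had 221 and 215 FPKM, and Polr2k had 54.3 and 48.0 FPKM.
Regulators were higher in the median, and their counts stand against the same shares of all rows. Other genes of more than 1500 coding bases also had a median above 0 in the deposited values, 0.03 with 39.3% lower. Coding lengths of the regulators were not compared, and the part of length in their medians was not tested. Of 18 mTOR and Myc pathway genes, 6 were lower in the deposited values and 1 was lower after scaling, with medians of 0.04 and 0.13. Larp1, which binds the pyrimidine tract, had 35.1 and 38.5 FPKM. Max, the partner of Myc, had 52.4 and 49.7 FPKM, and Maf1, a repressor of RNA polymerase III, had 39.4 and 34.8 FPKM. Of 9 S6 kinase genes, 1 was lower in either case, with medians of 0.05 as deposited and 0.13 after scaling. That gene was Rps6ka6, with 2.48 and 1.94 FPKM. Rps6ka4 had 32.0 and 35.3 FPKM, and Rps6ka2 had 3.31 and 3.89 FPKM. Differences between the lists were not tested.

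Introns of ribosomal protein genes carry many snoRNAs, the guides of rRNA modification, which are cut from the same primary transcript. The table has 33 snoRNA rows inside 23 of the genes. Of the 28 with a mean of 1 FPKM or more, 12 were lower and 16 were higher at 6 months in the deposited values. Over all rows, 53.7% were lower. SnoRNA rows of the same host differed in direction. In Rpl13a, which had 1797 FPKM at 2 months against 1666 FPKM at 6 months, Snord35a had 102 and 227 FPKM, Snord32a had 240 and 350 FPKM, Snord33 had 528 and 321 FPKM, and Snord34 had 981 and 821 FPKM. The 4 rows of this host thus divided evenly, with Snord35a and Snord32a higher at 6 months and Snord33 and Snord34 lower. These rows include 5 listed at 0 at either age and 3 listed at 0 at 1 age, and poly A selection does not retain mature snoRNAs, so that these values are not their levels.

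The makeup of the pools bears on every value above, because in bulk RNA fewer cells of a type and less RNA per cell cannot be told apart. Taste cell markers were present at both ages. The directions given below are those of deposited values, in which 53.7% of all 12652 rows were lower and 5854 were higher. After scaling without the small RNA rows, 29.3% of all rows were lower. The 5 type II markers, of the cells that detect sweet, bitter and umami, summed to 212 FPKM at 2 months against 219 FPKM at 6 months. Of them, 2 were lower and 3 higher at 6 months. Gnat3 was at 84.7 and 79.9 FPKM, Itpr3 at 35.0 and 42.1 FPKM, and Tas1r3 at 10.3 and 14.6 FPKM. The 5 type III markers, of the sour cells, summed to 31.3 and 36.3 FPKM and were all higher at 6 months, with Pkd2l1 at 12.4 and 14.0 FPKM. The 3 type I markers summed to 76.1 and 66.4 FPKM, with Entpd2 at 66.1 and 57.7 FPKM.
Keratinocyte markers were abundant. Krt5 had 2180 and 1962 FPKM and Krt14 had 1287 and 1533 FPKM, above any taste cell marker examined. The sum of the 5 keratinocyte markers went from 10906 to 3589 FPKM, but Krt4 was listed at 7334 FPKM at 2 months and at 0 at 6 months, and Krt13 was listed at 0 at both ages. Krt6a, which is not among those markers, was listed at 0 at 2 months and at 3391 FPKM at 6 months. Values of 0 in keratins that this tissue makes can be failed estimates.
The 5 lingual gland markers were all lower at 6 months in the deposited values, against 53.7% of all rows. They had a sum of 439 FPKM at 2 months against 306 FPKM at 6 months. Lipf, a lipase of the lingual glands, had 83.7 and 14.7 FPKM, Bpifb1 had 28.6 and 10.6 FPKM, and Lyz2, the most abundant of them, had 293 and 254 FPKM. Of the 5 leukocyte markers, which also hold Lyz2, Ptprc, Cd52 and Cd74 were higher at 6 months and Cd3e was below 1 FPKM, with Cd52 at 15.8 and 19.5 FPKM, although their sum went from 413 to 380 FPKM. The 6 fibroblast markers summed to 43.6 and 28.7 FPKM with Dcn at 42.0 and 27.3 FPKM, and the 3 endothelial markers summed to 0.383 and 0.399 FPKM. The part of cell makeup in the values of the ribosomal protein genes was not tested.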

How the data were processed

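The 6 libraries were of pooled CV/Fol taste cells, 3 at each age. The authors mapped reads with TopHat2 2.0.7 to GRCm38/mm10, quantified RefSeq genes with Cufflinks 2.1.1 and ran Cuffdiff. The authors deposited 1 FPKM value per gene and age. The deposited table also holds the p-value of the authors' own comparison, which was not used. Library values were not used here, depth is unknown, and no model was fitted.

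Changes are log2(FPKM + 1), 6 minus 2 months, which understates the change of low genes. Rows needed a mean of at least 1 FPKM. Values 25% higher or 20% lower were counted and set beside the same count over all rows. Genes named are the 5 most abundant, the 5 lowest and 5 highest changes among core genes (3 of them above 0), paralogs with parents, stalk and 5S genes, and 3 genes of each other list; further names were chosen after their values were seen. Members and lists were chosen with earlier results of these data known. Gene models came from GENCODE M21 and start sequences from RefSeq (GRCm38.p6). Counting was tested on simulated shifts. Tables were made in Python 3.11.15 with pandas 2.3.3, numpy 2.4.6 and scipy 1.17.1, and figures with matplotlib 3.10.9. Some items named by this rule are not reported here.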

Additional observations from a re-analysis of the deposited data

How the results depend on the processing

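No paired analysis was possible because each age has a single pooled value, and for the same reason no library could be left out. Under the planned scalings of the 6 month values, the median change of the 82 genes was -0.075 (same upper quartile), -0.035 (same sum of all rows) and -0.00071 (same sum without small RNA rows). Under the last, 41 were lower, against 29.3% of all rows. Alternatives added after seeing the data gave -0.083 (median of all rows at 0), -0.0073 with 44 lower, against 30.9% of all rows (median of rows over 100 FPKM at 0), and -0.0092 with 45 lower, against 31.4% of all rows (same sum without small RNA rows and the 17 rows listed at 0 at 1 age and at 100 FPKM or more at the other). In the same order, the small subunit had -0.076, -0.036, -0.0018, -0.084, -0.0084 and -0.0103, and the large subunit had -0.078, -0.038, -0.0037, -0.086, -0.0103 and -0.012. Paralogs and Rps19bp1 had -0.016, 0.025, 0.059, -0.024, 0.052 and 0.0501, against -0.037 as deposited, so that the direction reversed under 4 of the 6 scalings. Without a filter they had -0.028, and at a mean of 100 FPKM or more -0.046. The share of summed FPKM, 6 over 2 months, was 0.977 as deposited, 1.0005 without small RNA rows, which reversed it, and 0.995 without these and the 17 rows. The count of genes at least 25% higher or 20% lower was 0 among core genes and 0 at a mean of 100 FPKM or more. At 1.1-fold it was 13, with 12 lower and 1 higher. The other 58 values kept their direction, with the same median to 2 decimals, a count within 1.5 times or the same share to 3 digits. The cause of the differences between scalings was not tested. Depth is unknown, so low values have no error estimate here.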
